A study of Mus musculus with 48 samples.

Results

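Clone 6 and clone 4 are separate transformed clones of Cas9-Hoxb8 cells that both carry an edited Trp53 gene, and their transcriptomes were compared with each other. Cas9-Hoxb8 cells are mouse blood progenitors, labelled as granulocyte and monocyte progenitors (GMP), that grow under a Hoxb8 transgene and carry Cas9. The 6 libraries were chosen by label as the 3 of clone 6 and the 3 of clone 4, out of 48 in the series. Both groups have the genotype Trp53-KO and the treatment Etoposide transformed, and per the series text an aliquot of the transformed cells gave the RNA with no drug applied beforehand. The parental condition for setting levels was Trp53-KO cells kept 48 h in DMSO, the solvent of etoposide, with 3 libraries. Transformed clones 12 and 7 of cells edited for both Ercc6l2 and Trp53 (E6l2-Trp53-KO), with 3 libraries each, gave a second pair of clones. E6l2-Trp53-KO cells in DMSO entered the model fit only. Each clone stands for itself, since a group of 3 libraries is 1 clone, and the labels do not say whether its 3 libraries came from separate cultures. The p-values below therefore measure the spread between libraries and not between independent transformations.

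Granulocyte and monocyte progenitors give rise to neutrophils, monocytes and macrophages under the factors C/EBP-alpha and PU.1, and GATA2 and MITF drive the mast cell programme of proteases, histamine synthesis and the IgE receptor. Etoposide traps topoisomerase II on cut DNA, and cells without p53 can go on dividing after such damage. A transformed clone descends from few cells, so clones of 1 genotype can carry different heritable states, and RNA from a whole culture averages over all cells in it.

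Totals were 23 to 68.4 M counts (M for mega) in the 6 libraries, with clone 4 replicate 3 the deepest and the other 5 at 23 to 33.2 M, so low genes were counted best in clone 4. Levels are counts per M counts (CPM) after TMM scaling, which corrects for RNA composition, and they are not divided by gene length, so they are compared between libraries and not between genes. Trp53 (chromosome 11) was at 11, 11.7 and 11.2 CPM in clone 6, 14, 12.6 and 12.4 CPM in clone 4 and 26.8, 28 and 27.5 CPM in Trp53-KO cells in DMSO. The clones did not overlap each other, yet the difference was not called (log2 fold change -0.19, SE 0.075, adjusted p = 0.0684, edgeR quasi-likelihood F test). With an offset for transcript length and GC content it was called (log2 fold change -0.26, adjusted p = 0.0109). Small edits can leave the mRNA in place, so these levels do not check the genotype. The label GMP was set against 8 progenitor markers, whose summed level was 5210 to 5400 CPM in clone 6, 5290 to 5410 CPM in clone 4 and 7680 to 8210 CPM in DMSO. Kit, Ctsg and Cd34 made up nearly all of it in both clones, where Mpo, Elane, Prtn3, Ms4a3 and Cebpa averaged under 20 CPM each. The 9 mast cell and basophil markers summed to 119000 to 131000 CPM in clone 6, 115000 to 122000 CPM in clone 4 and 1610 to 1810 CPM in DMSO. Cpa3, Tpsb2 and Cma1 made up most of that sum in both clones. Mcpt8 alone of the 9 went the other way, at 22.1 CPM in clone 6, 21.7 CPM in clone 4 and 129 CPM in DMSO. By most of these markers both clones were far from the label and closer to mast cells, and the label is used below as a name only.

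The clones differed at many genes by small amounts and at fewer genes by large amounts. At most of the latter clone 6 was the lower clone. Below, rose and fell mean higher and lower in clone 6 than in clone 4. Calls are genes whose adjusted p (Benjamini-Hochberg) over the 14403 tested was under 0.05, in a fit of 18 libraries. In all 3460 genes (24%) were called, 1690 higher (11.7%) and 1770 lower (12.3%) in clone 6. Without clone 4 replicate 3, the deepest library, 2285 genes were called. At a change of at least 2-fold, 44 genes were higher (0.305%) and 609 were lower (4.23%) in clone 6. Of these 609, 278 stayed under 1 CPM in both clones and 9 passed 50 CPM in clone 4. The clones' libraries did not overlap at 5317 genes (36.9%). Against Trp53-KO cells in DMSO, 77.5% of tested genes were called for clone 6 and 80.4% for clone 4. The direction of the smaller differences depended on scaling. Of all calls 48.8% were higher in clone 6 in the fit with TMM factors, 58.6% with RLE size factors, which scale libraries by a median ratio, and 59.7% with DESeq2.

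**Figure D1:**
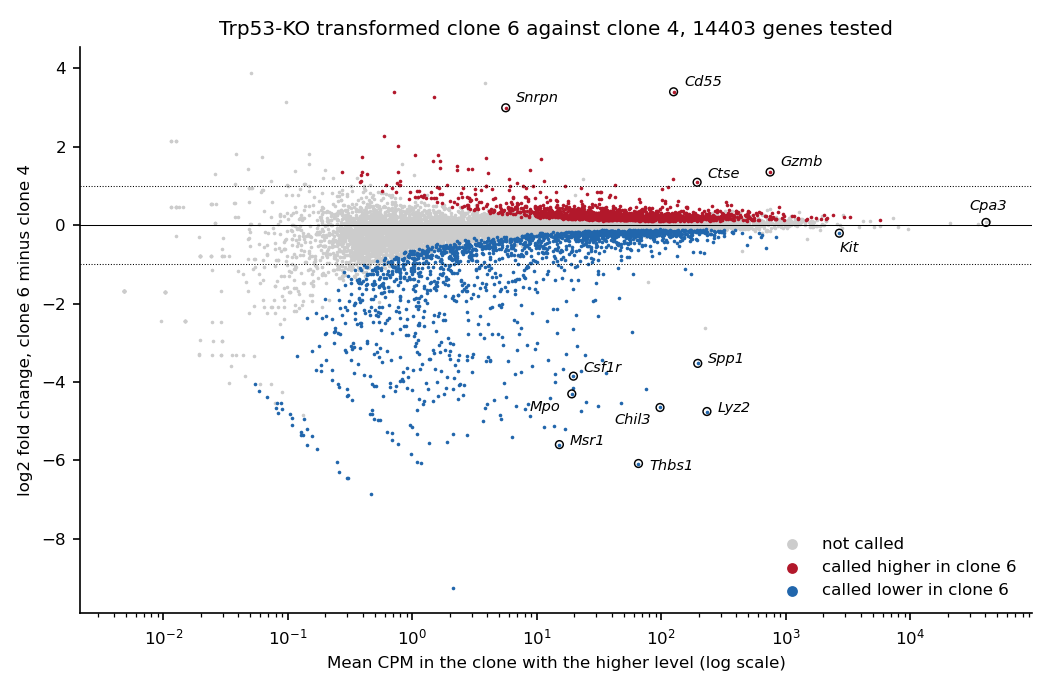
Each point is 1 of 14403 genes tested, with its mean CPM in the clone where it was higher on a log axis and its log2 fold change (clone 6 minus clone 4) on the vertical axis. Red genes were called higher and blue genes lower in clone 6, and dotted lines mark 2-fold. The blue genes reach far below -2, among them Thbs1, Lyz2 and Chil3, while few red genes pass 2-fold, with Cd55, Gzmb and Ctse at high levels.

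The 13 called genes that changed 2-fold or more and passed 50 CPM in 1 of the clones give the differences that rest on the most counts. Higher in clone 6 were Cd55, Gzmb, Ctse and H2bc24, and lower were Thbs1, Lyz2, Chil3, Gpnmb, Spp1, Nrep, Smoc2, Egr1 and Abca1. Cd55 (ENSMUSG00000026399, chromosome 1) encodes decay-accelerating factor, which protects a cell's surface from complement. It had 133, 120.0 and 124 CPM in clone 6, 10.9, 13.4 and 11.7 CPM in clone 4 and 0.126, 0.0378 and 0.0405 CPM in DMSO. All libraries of clone 6 lay far above all of clone 4, and the DMSO libraries were nearly empty. The difference was 10.6-fold (log2 fold change 3.40, SE 0.067, adjusted p = 3.78e-20). Cd55b, a near-identical neighbour, was at 0.712 and 0.0548 CPM on average in clones 6 and 4, and how reads were divided between the copies is not known. Gzmb (ENSMUSG00000015437, chromosome 14), the granule protease granzyme B, had 793, 713 and 740.0 CPM in clone 6 and 293, 295 and 289 CPM in clone 4. No library of clone 6 came near those of clone 4, and the 3 DMSO libraries held no count, which allows up to 0.0362 CPM (3 counts over the group, counting error only). Gzmb was 2.56-fold higher in clone 6 (log2 fold change 1.36, SE 0.054, adjusted p = 1.61e-12), and clones 12 and 7 had 1859 ± 74.8 and 2123 ± 61.3 CPM (SD, n = 3 each). Ctse, the aspartic protease cathepsin E, had 199, 189 and 195 CPM in clone 6 and 92.7, 90.1 and 90 CPM in clone 4 (2.14-fold). H2bc24, 1 of many near-identical H2B histone genes, had 125, 121 and 125 CPM in clone 6 and 47.5, 63.4 and 54 CPM in clone 4, and the sharing of reads among H2B copies makes it uncertain.

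Among the 9 highly expressed genes lower in clone 6, Thbs1 (ENSMUSG00000040152, chromosome 2) encodes thrombospondin 1, a secreted matrix protein. It had 0.794, 1.03 and 1.1 CPM in clone 6, 66.6, 62.7 and 67.6 CPM in clone 4 and 29.2, 23.4 and 24.1 CPM in DMSO. Clone 6 lay below both other groups in every library, and clone 4 above DMSO. Thbs1 was 67.7-fold lower in clone 6 than in clone 4 (log2 fold change -6.08, SE 0.11, adjusted p = 1.56e-20). Lyz2 (chromosome 10), macrophage lysozyme, had 9.04, 8.79 and 8.01 CPM in clone 6 and 243, 238 and 217 CPM in clone 4 (log2 fold change -4.75, SE 0.070, adjusted p = 5.88e-22). Chil3, a chitinase-like secreted protein of mouse neutrophils and macrophages, had 3.83, 3.26 and 4.54 CPM in clone 6 and 100.5, 99 and 93.9 CPM in clone 4 (log2 fold change -4.65, SE 0.085, adjusted p = 1.38e-20). Both genes were uniformly lower in clone 6 than in clone 4, with no overlap. In DMSO Lyz2 averaged 68.4 CPM, above clone 6, and Chil3 averaged 0.264 CPM, below clone 6. Gpnmb, a lysosomal membrane glycoprotein of macrophages, averaged 4.13 ± 0.608 CPM in clone 6 and 75.4 ± 2.7 CPM in clone 4 (SD, n = 3 each). Spp1, the cytokine osteopontin, averaged 17 ± 1.88 CPM in clone 6, 196 ± 4.45 CPM in clone 4 and 15 ± 1.26 CPM in DMSO. Abca1, the exporter of cholesterol, averaged 72.6 ± 2.07 CPM in clone 6 and 156 ± 5.79 CPM in clone 4 (log2 fold change -1.11). Nrep and Smoc2 (log2 fold changes -2.72 and -1.26) averaged 8.77 and 72.6 CPM in clone 6, against 57.7 and 174 CPM in clone 4. Clones 12 and 7 had 617 ± 7.78 and 143 ± 3.11 CPM of Gpnmb, more than either clone of Trp53-KO.

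**Figure D2:**
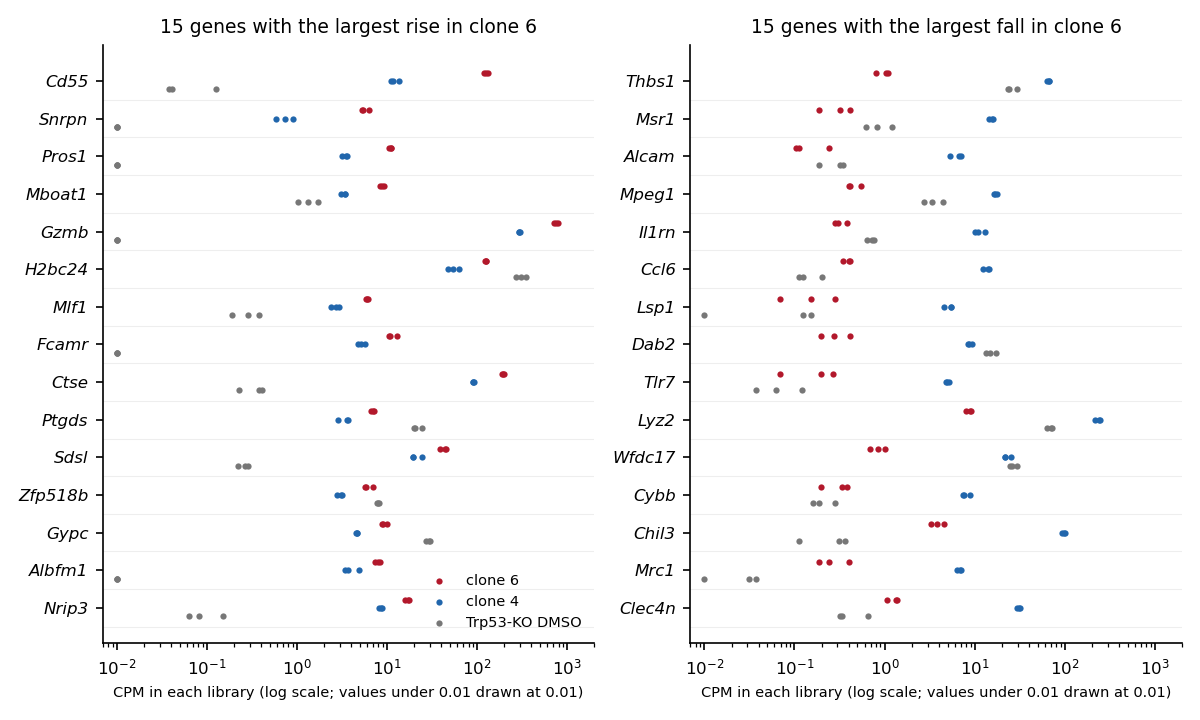
CPM in each library on a log axis for the 15 genes with the largest rise (left) and the 15 with the largest fall (right) in clone 6, chosen among called genes that reached a mean of 5 CPM in 1 of the clones and did not overlap between them. Red points are clone 6, blue points clone 4 and grey points Trp53-KO DMSO, with 3 libraries each. The 3 points of a clone lie close together compared with the gap between the clones, and the DMSO mean was above clone 6 for 4 of the genes on the left and 8 on the right.

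Monocyte and macrophage genes were lower in clone 6 almost as a group. Of 25 listed, 24 passed the filter on low counts and were tested, 20 fell (83.3%, beside 12.3% of all genes), none rose and 4 were not called, with a median log2 fold change of -2.61 beside -0.0034 over all genes. Against DMSO the list's median was -0.76 in clone 6 and 1.70 in clone 4, beside 0.0021 and 0.065 over all genes. At an unadjusted p under 0.05, 0 members were higher, and DESeq2 called 0 higher and 20 lower. Msr1 (chromosome 8), a scavenger receptor, had 0.414, 0.318 and 0.189 CPM in clone 6, 14.3, 15.8 and 15.5 CPM in clone 4 and 0.628, 0.832 and 1.21 CPM in DMSO. Csf1r (chromosome 18), the receptor for the macrophage growth factor, had 1.52, 1.35 and 1.21 CPM in clone 6, 20.8, 18.6 and 19.7 CPM in clone 4 and 2.48, 1.44 and 1.86 CPM in DMSO. Both were low in clone 6 and DMSO alike and high in clone 4 alone of the 3 groups (log2 fold change -5.60, SE 0.17, adjusted p = 1.63e-16 for Msr1, log2 fold change -3.85, SE 0.12, adjusted p = 3.51e-16 for Csf1r). Mrc1, the mannose receptor, had 0.242, 0.398 and 0.189 CPM in clone 6 and 6.91, 6.34 and 7.0 CPM in clone 4, and Cybb, the catalytic subunit of the phagocyte oxidase, had 0.38, 0.199 and 0.34 CPM in clone 6 and 7.5, 7.6 and 8.96 CPM in clone 4. Ctss, a lysosomal protease of antigen-presenting cells, averaged 2.64 ± 0.116 CPM in clone 6 and 36.2 ± 0.77 CPM in clone 4. No library of clone 6 reached any of clone 4 for these genes. The 4 members not called were F13a1, Cx3cr1, Fcgr3 and Cd36, the last of which was under 0.1 CPM in both clones. F13a1, Cx3cr1 and Fcgr3 averaged 122, 61.3 and 652 CPM in clone 6, against 129, 59.2 and 630.0 CPM in clone 4. The smallest called differences were in Tlr4 (log2 fold change -0.23) and Ms4a6d (-0.47), at 37 and 8.37 CPM in clone 6, against 43.3 and 11.6 CPM in clone 4. Tlr4 was not called without clone 4 replicate 3 (log2 fold change -0.18, adjusted p = 0.0559).

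Other genes among the 15 with the largest falls belong to macrophages or related myeloid cells. Mpeg1, the pore-forming protein perforin-2 of macrophages, had 0.552, 0.398 and 0.416 CPM in clone 6, 16.5, 17.7 and 16.7 CPM in clone 4 and 4.46, 3.33 and 2.71 CPM in DMSO. Clec4n, the lectin dectin-2, averaged 1.26 ± 0.163 CPM in clone 6 and 30.8 ± 1.19 CPM in clone 4, though reads can be shared among Clec4 genes. Dab2, an adaptor of endocytosis, averaged 0.297 ± 0.11 CPM in clone 6 and 8.78 ± 0.555 CPM in clone 4, and Lsp1, an actin-binding protein of leukocytes, averaged 0.166 ± 0.106 CPM in clone 6 and 5.13 ± 0.528 CPM in clone 4. Wfdc17, a small secreted protein of macrophages with close relatives, had 1.0, 0.836 and 0.68 CPM in clone 6, 25.6, 21.5 and 21.6 CPM in clone 4 and 29.8, 26.1 and 24.6 CPM in DMSO. In each of these genes all libraries of clone 6 lay far below all of clone 4, with log2 fold changes of -5.19 (Mpeg1), -4.60 (Clec4n), -4.88 (Dab2), -4.94 (Lsp1) and -4.75 (Wfdc17). Dab2 and Wfdc17 were on average higher in DMSO than in either clone.

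The 6 monocyte and macrophage markers together summed to 129 to 139 CPM in clone 6, 220 to 228 CPM in clone 4 and 1610 to 1820 CPM in DMSO. None of them was at 0, and F13a1 made up most of the sum in both clones. In RNA from whole cultures, fewer cells of a type and less of the RNA per cell cannot be told apart, and the part of such cells in these differences was not tested. B lymphoid markers summed to 0.637 to 0.725 CPM in clone 6 and 0.837 to 0.999 CPM in clone 4, and T lymphoid markers summed to 0.725 to 0.869 CPM in clone 6 and 1.04 to 1.59 CPM in clone 4. NK cell markers stayed under 0.1 CPM, and the eosinophil genes Epx and Ear1 had no counts in either clone.

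Monocyte and macrophage genes moved together. Promoters of 3 strongly lowered ones that hold the core letters of a PU.1 site are shown as examples, not as a strict ranking. They are RefSeq sequences of build GRCm38.p6, 250 bases before to 50 after the start of the gene, 5′ to 3′ on the gene's strand, with GAGGAA or its reverse complement in capitals. Cybb lies at chrX:9469275-9469574 on the minus strand, Mrc1 at chr2:14229164-14229463 on the plus strand and Ctss at chr3:95526536-95526835 on the plus strand.
Cybb: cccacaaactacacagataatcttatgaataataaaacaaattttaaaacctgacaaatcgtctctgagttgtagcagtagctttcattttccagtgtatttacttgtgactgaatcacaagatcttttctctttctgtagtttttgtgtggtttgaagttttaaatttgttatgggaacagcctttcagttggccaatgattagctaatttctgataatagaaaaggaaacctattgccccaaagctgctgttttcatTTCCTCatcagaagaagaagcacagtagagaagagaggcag
Mrc1: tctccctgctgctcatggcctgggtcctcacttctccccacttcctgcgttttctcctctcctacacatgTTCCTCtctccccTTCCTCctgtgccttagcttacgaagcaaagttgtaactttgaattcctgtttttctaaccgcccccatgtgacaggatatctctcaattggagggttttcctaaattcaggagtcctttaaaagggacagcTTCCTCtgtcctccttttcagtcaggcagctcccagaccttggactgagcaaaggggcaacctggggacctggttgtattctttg
Ctss: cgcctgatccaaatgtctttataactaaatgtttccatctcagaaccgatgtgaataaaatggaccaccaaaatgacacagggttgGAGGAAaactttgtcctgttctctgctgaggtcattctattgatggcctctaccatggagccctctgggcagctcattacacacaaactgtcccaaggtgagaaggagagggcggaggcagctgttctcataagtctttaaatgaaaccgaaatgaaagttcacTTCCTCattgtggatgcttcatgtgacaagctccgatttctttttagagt
The letters occurred 1 time in Cybb, 3 times in Mrc1 and 2 times in Ctss. Of the 20 lowered members, 12 had a single promoter in the table, and 6 of these (50%) held the letters on either strand, beside 28.3% of all 32851 promoters. With 12 promoters this share is rough, and such short letters are common. They do not show binding, and a part of PU.1 in the difference was not tested. Spi1, the gene of PU.1, averaged 62.9 ± 1.42 CPM in clone 6 and 61.8 ± 0.681 CPM in clone 4 and was not called (adjusted p = 0.784).

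Neutrophil genes were lower too, all but Chil3 and Itgam among the called ones from a level under 5 CPM in clone 4. Of 20 listed, 16 were tested, 11 fell (68.8%, beside 12.3% of all genes), none rose and 5 were not called (median log2 fold change -3.11). Against DMSO the list's median was -2.98 in clone 6 and -0.79 in clone 4. DESeq2 called 10 lower and 1 higher, and 1 was higher at an unadjusted p under 0.05 in edgeR. S100a8, a calcium-binding protein of neutrophils, had 0.242, 0.478 and 0.454 CPM in clone 6, 4.36, 4.04 and 4.32 CPM in clone 4 and 1.92, 2.27 and 3.08 CPM in DMSO (log2 fold change -3.46, SE 0.25, adjusted p = 5.18e-10). Lcn2 and Itgam averaged 0.0741 and 1.28 CPM in clone 6, against 1.29 and 16.3 CPM in clone 4. The 6 neutrophil markers, of which Camp and Ngp were at 0 in 2 libraries each of clone 6, summed to 0.587 to 0.869 CPM in clone 6, 7.29 to 8.02 CPM in clone 4 and 6.6 to 10 CPM in DMSO, and the part of neutrophil-like cells was not tested.

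Among 15 tested genes of the primary granule (16 listed), 7 fell (46.7%) and 3 rose (20%), beside 12.3% and 11.7% of all genes (median -0.55). Mpo (chromosome 11), myeloperoxidase, had 1.0, 0.796 and 1.1 CPM in clone 6, 19.9, 17.7 and 19.7 CPM in clone 4 and 2402, 2093 and 2360.2 CPM in DMSO. Both clones lay far below DMSO (log2 fold change -11.20 in clone 6 and -6.90 in clone 4), and clone 6 lay 19.8-fold below clone 4 (log2 fold change -4.30, SE 0.12, adjusted p = 5.64e-17). Elane, neutrophil elastase, had 0.104, 0.119 and 0.113 CPM in clone 6, 1.04, 1.3 and 0.794 CPM in clone 4 and 33.6, 25.4 and 31.3 CPM in DMSO. The 3 genes that rose, Ctsg, Srgn and Serpinb1a, averaged 2017, 3300.2 and 1482 CPM in clone 6, against 1693, 2838 and 1339 CPM in clone 4. They code for cathepsin G, the granule proteoglycan core and a protease inhibitor. Serpinb1a lost its call whichever library of the clones was left out (log2 fold changes 0.10 to 0.17), nor was Srgn called without clone 6 replicate 1 (log2 fold change 0.15, adjusted p = 0.117) or clone 4 replicate 3 (log2 fold change 0.20, adjusted p = 0.078).

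Transcription factors of the granulocyte and monocyte fate fell in 13 of 26 tested members (28 listed), which was 50%, beside 12.3% of all genes, and none rose (median -0.25). At an unadjusted p under 0.05, 1 was higher, and DESeq2 called 1 higher. Cebpa (chromosome 7), the gene of C/EBP-alpha, had 0.276, 0.159 and 0.189 CPM in clone 6, 2.33, 2.39 and 2.31 CPM in clone 4 and 203, 201 and 199 CPM in DMSO (log2 fold change -3.44, SE 0.18, adjusted p = 2.86e-12). Irf8, the monocyte factor, had 0.104, 0.119 and 0.113 CPM in clone 6, 2.06, 2.21 and 2.05 CPM in clone 4 and 4.3, 4.24 and 4.33 CPM in DMSO. Both factors were lowest in clone 6 and highest in DMSO. Klf4 and Id3 averaged 0.181 and 0.184 CPM in clone 6, against 1.13 and 1.14 CPM in clone 4. Maf, a macrophage factor, averaged 49.8 ± 2.61 CPM in clone 6 and 70.5 ± 2.28 CPM in clone 4 (log2 fold change -0.50), and Gfi1, Myb and Erg were not called. Tfec, a relative of MITF found in macrophages, had 0.069, 0.0398 and 0 CPM in clone 6, 1.97, 1.95 and 1.83 CPM in clone 4 and 26.3, 23.3 and 24.1 CPM in DMSO.

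Genes of MHC antigen presentation moved both ways, with the largest falls among class II chains. Of 21 tested class I and class II genes, 6 fell (28.6%) and 3 rose (14.3%), beside 12.3% and 11.7% of all genes (median -0.019). The 4 largest falls were of Cd74, H2-Aa, H2-Eb1 and H2-Ab1. H2-Aa, a class II chain, had 0.173, 0.119 and 0.0756 CPM in clone 6, 2.67, 2.61 and 2.43 CPM in clone 4 and 0, 0.0378 and 0 CPM in DMSO (log2 fold change -4.32, SE 0.34, adjusted p = 2.86e-08). Cd74, the class II invariant chain, had 2.9, 3.9 and 2.68 CPM in clone 6, 19.7, 19.6 and 19.6 CPM in clone 4 and 0.0628, 0.0378 and 0 CPM in DMSO. Clone 4 stood above both other groups for each of these genes. H2-Eb1 and H2-Ab1 fell with them (log2 fold changes -3.72 and -3.02). Ciita, the class II activator, averaged 0.475 CPM in clone 6 and 0.614 CPM in clone 4 and was not called (adjusted p = 0.438). H2-DMa, which loads class II peptides, averaged 5.73 ± 0.84 CPM in clone 6 and 8.35 ± 0.417 CPM in clone 4. The genes that rose were of class I, with H2-T23 counted at 204, 199 and 198 CPM in clone 6, against 181, 173 and 164 CPM in clone 4, and the other two, H2-K1 and B2m, lost their call without clone 4 replicate 3 (log2 fold change 0.13, adjusted p = 0.0716 for H2-K1, log2 fold change 0.15, adjusted p = 0.15 for B2m). H2-K1 also lost it with the length and GC offset (log2 fold change 0.10, adjusted p = 0.068), and B2m without clone 6 replicate 1 (log2 fold change 0.12, adjusted p = 0.204), clone 6 replicate 2 (log2 fold change 0.17, adjusted p = 0.0728) or clone 4 replicate 2 (log2 fold change 0.16, adjusted p = 0.111).

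Chemokine and cytokine genes fell in 10 of 21 tested members (31 listed) and rose in 2 (in 1 without clone 6 replicate 1 or 2, or clone 4 replicate 2 or 3). In all libraries 47.6% of the list fell and 9.52% rose, beside 12.3% and 11.7% of all genes. Ccl9, a chemokine of mouse myeloid cells, had 2.04, 2.19 and 1.89 CPM in clone 6, 49.3, 46.5 and 45.5 CPM in clone 4 and 1057, 1083 and 967 CPM in DMSO (log2 fold change -4.53, SE 0.079, adjusted p = 6.39e-21). Its neighbour Ccl6 averaged 0.386 ± 0.0367 CPM in clone 6 and 13.7 ± 1.15 CPM in clone 4, and reads of such related genes can be misassigned. Il1rn, the interleukin-1 receptor antagonist, averaged 0.32 ± 0.0529 CPM in clone 6 and 11.4 ± 1.53 CPM in clone 4. In the other direction, Ccl2, a monocyte attractant, averaged 350.4 ± 26.3 CPM in clone 6 and 269.9 ± 5.83 CPM in clone 4 (log2 fold change 0.38, adjusted p = 0.00248). Csf1, the ligand of the Csf1r receptor, was lower in clone 6, at 31.1 ± 0.164 CPM, against 54.9 ± 1.97 CPM in clone 4 (log2 fold change -0.82).

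Growth factor receptors fell in 11 (40.7%) and rose in 2 (7.41%) of 27 tested members (28 listed), beside 12.3% and 11.7% of all genes, and rose in 1 without clone 6 replicate 1 or 2, or clone 4 replicate 2 or 3. Besides Csf1r these included Ccr2, the monocyte chemokine receptor, at 2.28, 2.07 and 3.06 CPM in clone 6, 23.2, 25.4 and 25 CPM in clone 4 and 226, 242 and 204 CPM in DMSO. Csf3r, the receptor for granulocyte growth factor, averaged 0.163 CPM in clone 6, 1.48 CPM in clone 4 and 15 CPM in DMSO. Kit (chromosome 5), the receptor for stem cell factor on which mast cells depend, had 2284, 2398 and 2333 CPM in clone 6, 2724, 2649 and 2708 CPM in clone 4 and 297, 300.4 and 309.6 CPM in DMSO. All clone 6 libraries lay below all clone 4 libraries and both clones far above DMSO, and the step between the clones was small (log2 fold change -0.20, SE 0.046, adjusted p = 0.00235). Csf2rb, the common beta chain of the IL-3 and GM-CSF receptors, averaged 489 ± 16 CPM in clone 6 and 457 ± 11.7 CPM in clone 4, a difference called by DESeq2 (log2 fold change 0.12, adjusted p = 0.0285) and not by edgeR (adjusted p = 0.152).

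Immediate early genes, which answer growth factor signals within minutes, fell in 13 of 23 tested members (56.5%, beside 12.3% of all genes) and rose in none (median -0.41), with 0 higher at an unadjusted p under 0.05 or by DESeq2. Egr1 (chromosome 18) had 24, 27.3 and 23.8 CPM in clone 6, 61.6, 57 and 59.4 CPM in clone 4 and 4.08, 3.9 and 4.37 CPM in DMSO (log2 fold change -1.25, SE 0.083, adjusted p = 1.39e-10). Atf3 had 3.66, 3.66 and 3.4 CPM in clone 6 and 9.83, 10 and 9.6 CPM in clone 4 (log2 fold change -1.45, SE 0.11, adjusted p = 1.84e-09). Fos averaged 13.7 ± 0.643 CPM in clone 6 and 31 ± 1.82 CPM in clone 4 (log2 fold change -1.18). For these 3 genes clone 4 was above clone 6 in every library and DMSO was lowest. Jund, Ier3, Fosl2 and Klf6 were not called. The feedback regulators of the MAPK pathway moved both ways, with Spry2 lower (log2 fold change -1.03) and Etv4 and Dusp4 higher (0.47 and 0.38) in clone 6.

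Interferon-response genes fell in 12 of 29 tested members (36 listed) and rose in 1, Usp18 (in 0 without clone 6 replicate 1 or clone 4 replicate 3 and in 2 without clone 4 replicate 1). In all libraries 41.4% of this list fell and 3.45% rose, beside 12.3% and 11.7% of all genes. Those with the largest falls, Oas2 and Gbp2, averaged 0.0374 and 0.174 CPM in clone 6, against 0.381 and 0.785 CPM in clone 4. Integrin and adhesion genes moved in both directions, with 15 lower (48.4%) and 7 higher (22.6%) of 31 tested (34 listed), beside 12.3% and 11.7% of all genes. Alcam had 0.104, 0.239 and 0.113 CPM in clone 6 and 5.38, 6.69 and 7.02 CPM in clone 4, whereas Pecam1, also an adhesion molecule, had 160.0, 162 and 163 CPM in clone 6 and 118, 116 and 120.3 CPM in clone 4.

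Of 29 tested lysosome and autophagy genes, 3 rose and 4 fell (median 0.029), and 1 rose without clone 6 replicate 1 or 2, or clone 4 replicate 2 or 3. In all libraries 24.1% of the list was called, the same rate as the 24% of all genes. Ctsl, the protease cathepsin L, had 2.9, 2.75 and 3.48 CPM in clone 6, 32.2, 35.3 and 31.9 CPM in clone 4 and 14.4, 18.2 and 15.1 CPM in DMSO (log2 fold change -3.44, SE 0.093, adjusted p = 1.77e-17). Clone 4 was the highest of the 3 groups in every library. Ctsb, cathepsin B, averaged 345 ± 3.63 CPM in clone 6 and 488 ± 8.06 CPM in clone 4 (log2 fold change -0.50), and Ulk1, a kinase that starts autophagy, also fell (log2 fold change -0.28). Ctsd, cathepsin D, averaged 5762 ± 47.9 CPM in clone 6 and 5250.2 ± 76.7 CPM in clone 4, a call (log2 fold change 0.13, adjusted p = 0.0405) that was lost whichever library of the clones was left out (log2 fold changes 0.13 to 0.15), after thinning, without the filter on low counts and with the length and GC offset (log2 fold change 0.049, adjusted p = 0.425). Of 15 tested genes of megakaryocytes and erythroid cells (25 listed), 5 rose (33.3%) and 3 fell (20%), beside 11.7% and 12.3% of all genes. Pf4, a platelet chemokine, had 4.18, 4.26 and 4.2 CPM in clone 6, 22.3, 20.6 and 19.4 CPM in clone 4 and 28.7, 25.4 and 30.4 CPM in DMSO (log2 fold change -2.29, SE 0.14, adjusted p = 3.58e-11), and its neighbour Ppbp fell with it (log2 fold change -4.48). Itga2b and Gp9, platelet surface glycoproteins, rose. Itga2b averaged 544 ± 12.4 CPM in clone 6 and 455 ± 13.5 CPM in clone 4, and Gp9 averaged 26.4 ± 2.06 CPM in clone 6 and 20.6 ± 1.35 CPM in clone 4. The megakaryocyte and erythroid markers summed to 586 to 604 CPM in clone 6, 506 to 535 CPM in clone 4 and 76.2 to 90.2 CPM in DMSO, and the part of such cells was not tested.

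**Figure D3:**
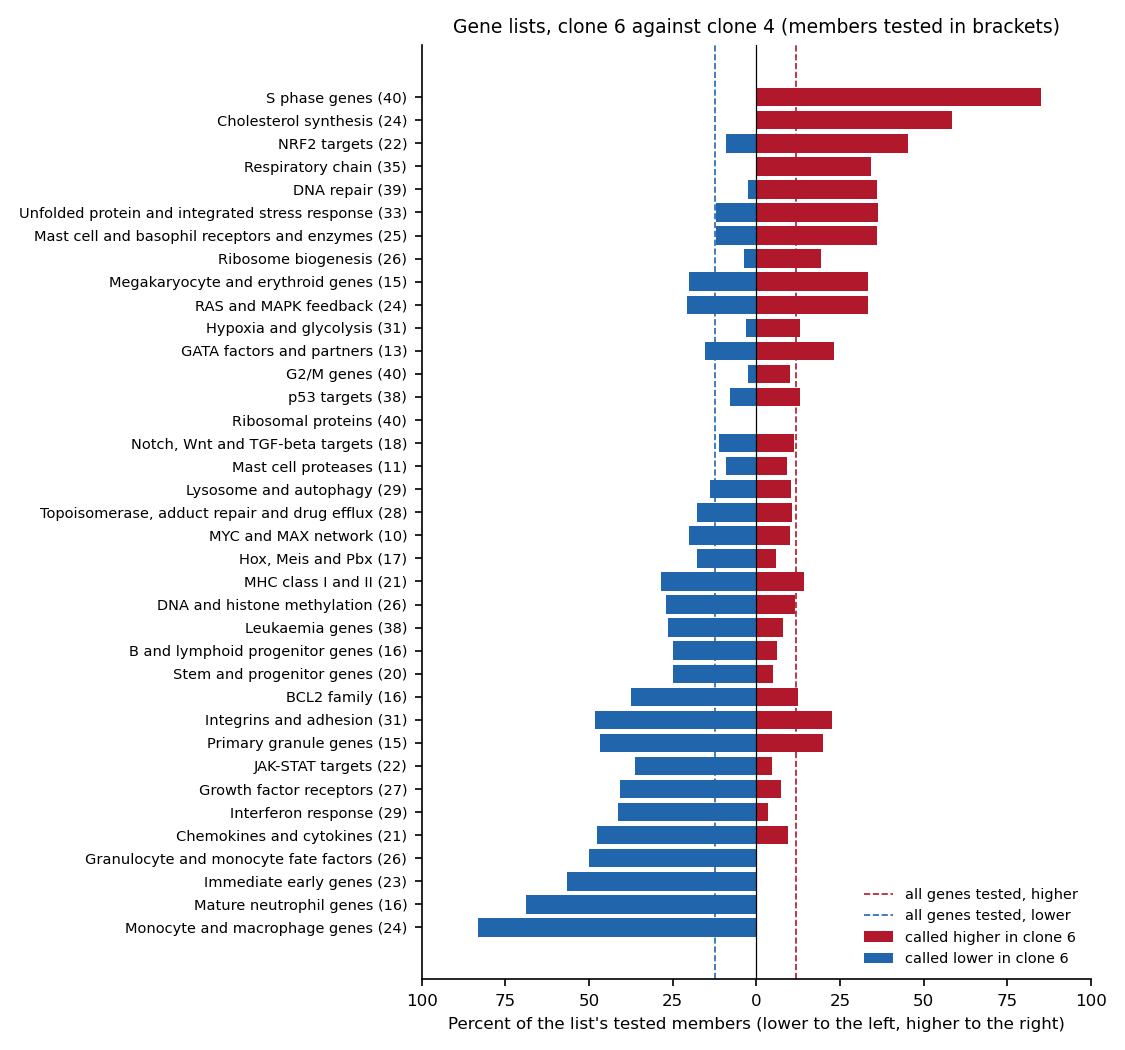
Percent of each list's tested members called higher (red, to the right) or lower (blue, to the left) in clone 6, for the lists with at least 10 tested members, and dashed lines for all genes tested (11.7% higher and 12.3% lower). Monocyte and macrophage genes reach farthest to the left (20 of 24) and S phase genes farthest to the right (34 of 40), while no ribosomal protein gene was called.

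Genes of DNA replication were higher in clone 6, each by a small step. Of 40 tested S phase genes, 34 rose (85%, beside 11.7% of all genes), none fell and 6 were not called, and the median log2 fold change was 0.24 beside -0.0034 over all genes. None was lower at an unadjusted p under 0.05 (0 genes), DESeq2 called 35 higher and 0 lower, and 26 rose without clone 4 replicate 3. Mcm2 (chromosome 6), a subunit of the replicative helicase, had 115, 119 and 122 CPM in clone 6, 86.8, 86.4 and 86.7 CPM in clone 4 and 244, 238 and 234 CPM in DMSO. Mcm5, of the same helicase, had 147, 142 and 145 CPM in clone 6, 111, 112 and 115 CPM in clone 4 and 407, 393 and 390.1 CPM in DMSO. Clone 6 lay above clone 4 in every library, and both lay below DMSO (log2 fold change 0.45, SE 0.039, adjusted p = 8.61e-09 for Mcm2, log2 fold change 0.36, SE 0.041, adjusted p = 8.16e-07 for Mcm5). Tk1, thymidine kinase, and Rfc5, of the clamp loader, averaged 69.4 and 34.7 CPM in clone 6, against 52.9 and 27.5 CPM in clone 4. Of 40 genes of G2 and mitosis, 4 rose, 1 fell and 35 were not called, and 2 rose without clone 6 replicate 1 or clone 4 replicate 3. In all libraries 12.5% of this list was called, beside 24% of all genes. Aurkb and Cdk1, kinases of mitosis, rose by 0.24 and 0.23 on the log2 scale, and Cenpf, of the kinetochore, had a log2 fold change of -0.17, which was not called without clone 6 replicate 1 (log2 fold change -0.14, adjusted p = 0.0643) or with the length and GC offset (log2 fold change -0.037, adjusted p = 0.583). Ccnd1, cyclin D1, had 108, 108 and 107 CPM in clone 6, 70.7, 66.9 and 72.4 CPM in clone 4 and 26.5, 32.1 and 29.8 CPM in DMSO (log2 fold change 0.62, SE 0.049, adjusted p = 3.10e-09).

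Promoters of 3 raised S phase genes that hold an E2F site are also shown as examples, not as a strict ranking. E2F is the factor family that switches on replication genes. The letters searched were TTTCGCGC, TTTGGCGC and TTTCCCGC on both strands, which can overlap each other, and capitals mark them. The windows and source are as above, with Mcm5 at chr8:75109259-75109558 on the plus strand, Orc1 at chr4:108579204-108579503 on the plus strand and Gins3 at chr8:95633309-95633608 on the plus strand.
Mcm5: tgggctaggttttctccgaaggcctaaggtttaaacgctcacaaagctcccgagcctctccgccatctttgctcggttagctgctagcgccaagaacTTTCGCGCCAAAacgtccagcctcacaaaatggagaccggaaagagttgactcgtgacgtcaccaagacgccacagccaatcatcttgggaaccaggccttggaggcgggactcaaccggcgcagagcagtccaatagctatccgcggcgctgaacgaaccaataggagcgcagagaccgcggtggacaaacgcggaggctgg
Orc1: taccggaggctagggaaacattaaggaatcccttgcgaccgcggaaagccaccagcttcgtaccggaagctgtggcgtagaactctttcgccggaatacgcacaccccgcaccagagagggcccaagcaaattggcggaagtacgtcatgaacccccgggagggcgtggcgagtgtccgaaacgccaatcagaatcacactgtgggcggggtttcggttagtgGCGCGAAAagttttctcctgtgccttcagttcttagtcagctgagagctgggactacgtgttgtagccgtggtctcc
Gins3: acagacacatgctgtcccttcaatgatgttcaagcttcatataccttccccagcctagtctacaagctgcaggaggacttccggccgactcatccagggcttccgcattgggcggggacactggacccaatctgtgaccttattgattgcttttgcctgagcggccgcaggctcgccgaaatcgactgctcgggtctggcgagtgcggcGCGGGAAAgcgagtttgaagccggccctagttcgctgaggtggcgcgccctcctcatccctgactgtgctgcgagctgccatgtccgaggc
Mcm5 held 2 overlapping matches, and Orc1 and Gins3 held 1 each. Of the 34 raised S phase genes, 24 had a single promoter in the table, and 10 of these (41.7%) held a match, beside 1.84% of all promoters. The list was made of replication genes, which E2F switches on, so this share describes the list and not the clones. A part of E2F in the difference between the clones was not tested. Orc1, of the origin recognition complex, averaged 10.8 ± 0.891 CPM in clone 6 and 8.64 ± 1.45 CPM in clone 4, and Gins3, of the GINS complex, averaged 9.54 ± 1.23 CPM in clone 6 and 7.7 ± 0.186 CPM in clone 4. These 2 calls depended on single libraries, as Orc1 was not called without clone 4 replicate 3 (log2 fold change 0.30, adjusted p = 0.0632) and Gins3 not without clone 6 replicate 1 or 3 (log2 fold change 0.24, adjusted p = 0.0792 and log2 fold change 0.26, adjusted p = 0.0529). A match describes the letters of a window and does not show binding.

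Several metabolic and stress lists leaned to higher levels in clone 6, again by small steps. The tie of log2 fold changes to transcript length and GC content, given above, bears on steps of this size. Called higher were 58.3% of cholesterol synthesis, 34.3% of respiratory chain and 35.9% of DNA repair genes, beside 11.7% of all genes. For NRF2 targets the share was 45.5%, and for the unfolded protein and integrated stress responses 36.4%. Cholesterol synthesis genes rose in 14 of 24 tested members and fell in none (median 0.19), with 1 lower at an unadjusted p under 0.05 and 0 by DESeq2. Mvd had 63.9, 67.3 and 68.6 CPM in clone 6 and 52.3, 52.4 and 51.6 CPM in clone 4, and Fdps had 635, 590.0 and 596 CPM in clone 6 and 483, 485 and 464 CPM in clone 4. Both enzymes of the mevalonate pathway were higher in every library of clone 6. Respiratory chain genes rose in 12 of 35, but in 4 without clone 6 replicate 1 and in 7 without clone 4 replicate 3. DNA repair genes rose in 14 and fell in 1 of 39 (fell in 0 without clone 6 replicate 1 or 3, or clone 4 replicate 1 or 2), among them Ercc6l2 (chromosome 13), the helicase-like gene of the series, at 38.7, 33.7 and 37.7 CPM in clone 6, 26.1, 28.9 and 28.6 CPM in clone 4 and 25.4, 26.6 and 25.5 CPM in DMSO. Clone 6 was the highest of the 3 groups and clone 4 overlapped DMSO (log2 fold change 0.40, SE 0.059, adjusted p = 3.00e-05). Targets of NRF2, the oxidative stress factor, rose in 10 and fell in 2 of 22, and genes of the unfolded protein and integrated stress responses rose in 12 and fell in 4 of 33 (fell in 2 without clone 6 replicate 2 or 3, or clone 4 replicate 1 or 2). Me1, the malic enzyme, averaged 2.99 ± 0.263 CPM in clone 6 and 1.13 ± 0.148 CPM in clone 4, and the chaperone Hspa5 averaged 413 ± 14.4 CPM in clone 6 and 324 ± 11.2 CPM in clone 4. Of 40 ribosomal protein genes 0 were called by edgeR, 0 had an unadjusted p under 0.05 and 0 were called by DESeq2.

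Most mast cell proteases were not called between the clones, whereas receptors and enzymes of mast cells were called more often than genes overall. Of 11 mast cell protease genes, Gzmb rose, Mcpt2 fell and 9 were not called (18.2% called, beside 24% of all genes, median 0.040). Mcpt2 averaged 49.1 ± 5.65 CPM in clone 6 and 56.6 ± 3.34 CPM in clone 4 with overlapping libraries (log2 fold change -0.20, adjusted p = 0.043), and its call was lost with RLE size factors (log2 fold change -0.17, adjusted p = 0.08), DESeq2 (log2 fold change -0.18, adjusted p = 0.0912), the 6 libraries alone and thinning, and without clone 6 replicate 2 or 3 or clone 4 replicate 1 or 2 (down to log2 fold change -0.13, adjusted p = 0.212 without clone 6 replicate 3). Cpa3, mast cell carboxypeptidase, had 42692, 39329 and 39809 CPM in clone 6, 38539, 39748 and 37740.0 CPM in clone 4 and 1068, 1261 and 1056 CPM in DMSO (adjusted p = 0.424 between the clones). Its libraries overlapped between the clones and lay far above DMSO in both. Mcpt, Tpsb2 and Tpsab1 genes have near-identical copies, so their counts are uncertain. Of 25 receptors and enzymes, 9 rose and 3 fell (48% called, beside 24% of all genes), and 68% did not overlap between the clones, beside 36.9% of all genes. The log2 fold changes of the 9 rises lay between 0.14 and 0.49. Fcer1a, the IgE-binding chain, averaged 2391 ± 153 CPM in clone 6 and 1996 ± 105 CPM in clone 4 (log2 fold change 0.26), while clones 12 and 7 had 172 ± 1.47 and 66.6 ± 2.48 CPM. Tph1, which makes serotonin's precursor, fell, with 38.2, 36.5 and 35 CPM in clone 6 and 57.6, 56.1 and 57.1 CPM in clone 4, as did Cd63, a granule membrane protein, with 1.17, 0.836 and 0.983 CPM in clone 6 and 2.18, 1.82 and 2.06 CPM in clone 4. Cd63 stood at 35.2, 37.2 and 29.4 CPM in DMSO and at 680.4 ± 54.4 and 682 ± 53.9 CPM in clones 12 and 7, so both clones of Trp53-KO had very little of it. The factors Gata2, Gata1 and Mitf averaged 623, 125 and 119 CPM in clone 6, against 609, 119.9 and 120.3 CPM in clone 4, and none was called (adjusted p = 0.698, 0.341 and 0.81). Among 13 GATA factors and partners 3 rose and 2 fell (38.5% called, beside 24% of all genes). Gfi1b, Lyl1 and Nfe2 rose by 0.56, 0.37 and 0.37 on the log2 scale, and Gata3 and Runx1 had log2 fold changes of -0.45 and -0.21. Runx1 was not called without clone 6 replicate 1 (log2 fold change -0.16, adjusted p = 0.0912) or clone 4 replicate 3 (log2 fold change -0.15, adjusted p = 0.12), nor with the length and GC offset (log2 fold change -0.16, adjusted p = 0.0517).

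Most p53 targets and most genes tied to etoposide were not called, which held for most genes tested too. The shares called were 21.1% of p53 targets and 28.6% of topoisomerase, adduct repair and drug efflux genes, beside 24% of all genes. Of 38 tested p53 targets, 5 rose, 3 fell and 30 were not called (median 0.0012). Without clone 4 replicate 3, 3 rose and 5 fell, 3 rose without clone 6 replicate 1 and 5 fell without clone 6 replicate 3. The largest falls were of Ephx1, an epoxide hydrolase (log2 fold change -2.41), and Fas, a death receptor (log2 fold change -1.36). Cdkn1a, the p21 inhibitor of the cell cycle, had 13.8, 13.1 and 12.1 CPM in clone 6, 12.1, 10.7 and 10.9 CPM in clone 4 and 1.29, 1.89 and 1.9 CPM in DMSO. The highest library of clone 4 was close to the lowest of clone 6, and the difference was not called (log2 fold change 0.21, SE 0.14, adjusted p = 0.279). Mdm2 and Cdkn2a averaged 46.5 and 14.8 CPM in clone 6, against 44.8 and 15.5 CPM in clone 4, with overlap and no call. Gdf15, a stress-induced cytokine, had 4.21, 3.82 and 3.63 CPM in clone 6 and 2.15, 2.17 and 1.75 CPM in clone 4 (log2 fold change 0.99, SE 0.15, adjusted p = 4.81e-05). Top2a, a target of etoposide, averaged 439.6 ± 25.2 CPM in clone 6 and 415 ± 18.5 CPM in clone 4. Tdp2, which removes trapped topoisomerase II, averaged 18.6 ± 1.32 CPM in clone 6 and 18.6 ± 1.08 CPM in clone 4, and Abcb1b, a drug exporter, averaged 120.1 ± 7.16 CPM in clone 6 and 122 ± 1.31 CPM in clone 4. All 3 overlapped between the clones and none was called, with log2 fold changes of 0.083 (SE 0.050), 0.012 (SE 0.075) and -0.026 (SE 0.057). Top2a was called with the length and GC offset (log2 fold change 0.15, adjusted p = 0.00844). In the list of topoisomerase, adduct repair and drug efflux genes 3 rose and 5 fell of 28, with the Schlafen genes Slfn2 and Slfn8 and the exporter Abcc3 lower (log2 fold changes -2.48, -0.95 and -1.87).

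Of 38 tested leukaemia genes, 3 rose and 10 fell (26.3% lower, beside 12.3% of all genes). Cebpa, described above, had the largest fall, and Mecom the largest rise. Mecom (chromosome 3), the EVI1 gene, had 4.59, 3.82 and 3.86 CPM in clone 6, 1.51, 1.82 and 1.62 CPM in clone 4 and 0.0942, 0 and 0.0405 CPM in DMSO (log2 fold change 1.33, SE 0.14, adjusted p = 3.89e-07). Every library of clone 6 had more than any of clone 4, and DMSO was at or near 0. Hoxb8, whose transgene keeps the parental cells growing, averaged 48.9 ± 1.37 CPM in clone 6 and 53 ± 5.14 CPM in clone 4, and Meis1, a partner of Hox proteins, averaged 25.9 ± 0.765 CPM in clone 6 and 24.1 ± 0.78 CPM in clone 4, neither called. Meis1 was called with RLE size factors (log2 fold change 0.13, adjusted p = 0.0411) and with the length and GC offset (log2 fold change 0.22, adjusted p = 0.00109), and Hoxb8 without the 2 libraries of over 60 M counts (log2 fold change -0.19, adjusted p = 0.0258). Whether reads came from the Hoxb8 transgene or the native gene is not known. Hoxa9 was under 0.2 CPM in each library of both clones, against 47.9, 51.1 and 50.8 CPM in DMSO. Myc had 23.7, 26.4 and 24.2 CPM in clone 6 and 24, 21.1 and 20.9 CPM in clone 4, a called difference with overlapping libraries (log2 fold change 0.17, SE 0.059, adjusted p = 0.0391) that was not called without clone 4 replicate 3 (log2 fold change 0.12, adjusted p = 0.238), clone 4 replicate 2 (log2 fold change 0.15, adjusted p = 0.12), clone 6 replicate 2 (log2 fold change 0.13, adjusted p = 0.187) or clone 6 replicate 3 (log2 fold change 0.19, adjusted p = 0.054), nor with the length and GC offset (log2 fold change 0.11, adjusted p = 0.143). In the BCL2 family 6 of 16 fell (37.5%, beside 12.3% of all genes), led by Bcl2a1d, Bcl2a1a and Bcl2a1b, copies whose reads cannot be kept apart with certainty. Bcl2l11, the proapoptotic BIM gene, averaged 12.8 ± 1.08 CPM in clone 6 and 18.1 ± 1.62 CPM in clone 4 (log2 fold change -0.50).

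Further genes among the 15 with the largest rises in clone 6 are given singly, and a common role was not tested. Snrpn (chromosome 7), an imprinted gene for a splicing protein whose transcript also holds Snurf, had 5.45, 5.21 and 6.24 CPM in clone 6 and 0.891, 0.738 and 0.577 CPM in clone 4, with no count in the 3 DMSO libraries (log2 fold change 3.00, SE 0.19, adjusted p = 1.43e-09). Clones 12 and 7 stood at 0.52 ± 0.0933 and 0.504 ± 0.16 CPM, near clone 4. Pros1, the anticoagulant protein S, had 10.5, 11 and 11.2 CPM in clone 6 and 3.59, 3.47 and 3.16 CPM in clone 4, and Mboat1, a lysophospholipid acyltransferase, had 8.73, 8.28 and 9.26 CPM in clone 6 and 3.04, 3.39 and 3.36 CPM in clone 4. All 3 genes were higher in each library of clone 6. Fcamr, an Fc receptor for IgA and IgM, averaged 11.4 CPM in clone 6 and 5.2 CPM in clone 4 and had no count in DMSO. Mlf1, Sdsl, Nrip3 and Albfm1 also lay above DMSO in both clones, with log2 fold changes between the clones of 1.17, 1.02, 1.00 and 1.00. Ptgds, Gypc and Zfp518b were higher in DMSO than in either clone, and between the clones they rose by 1.09, 1.01 and 1.01.

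Clones 12 and 7 of E6l2-Trp53-KO share no library with clones 6 and 4, so the same genes could be read in a second pair. Of the 609 genes at least 2-fold lower in clone 6 than in clone 4, 352 were called higher in clone 12 than in clone 7 and 6 lower, and 251 were not called. Over all genes 8.64% were called higher and 4.78% lower in clone 12. Clone 12 replicate 3 stands apart, with 114 M counts against 25.7 and 28.6 M in the other two libraries of clone 12. Without it and clone 4 replicate 3, 1129 genes were called between clones 12 and 7 (821 higher and 308 lower), against 1933 (1244 higher and 689 lower) in all libraries. In that fit 310 of 608 of the genes lower in clone 6 were called higher in clone 12 and 3 lower, beside 5.65% higher and 2.12% lower over all genes. The median log2 fold change of the 609 genes was 1.20 for clone 12 minus clone 7, beside 0 over all genes tested. Of the 44 genes at least 2-fold higher in clone 6, 4 were called higher and 2 lower in clone 12. Monocyte and macrophage genes were called higher in clone 12 in 21 of 24 (median 1.85) and neutrophil genes in 11 of 16 (median 2.28), none lower in either list (20 and 9 without the 2 deep libraries).

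Single genes show how the 4 clones were ranked. Msr1 averaged 43.7 ± 3.28 CPM in clone 12 and 10.5 ± 0.0928 CPM in clone 7 (log2 fold change 2.06, adjusted p = 3.65e-14), so that clone 6 at 0.307 CPM was the lowest of the 4 and clone 4 stood between the others. Csf1r averaged 51.1 ± 1.29 CPM in clone 12 and 14.1 ± 1.08 CPM in clone 7, and Mpo averaged 65.3 ± 3.8 CPM in clone 12 and 6.22 ± 0.727 CPM in clone 7. Chil3 averaged 99.6 ± 2.22 CPM in clone 12 and 3.55 ± 0.373 CPM in clone 7, beside 3.88 CPM in clone 6 and 97.8 CPM in clone 4. S phase genes were lower in clone 12 in 15 of 40 (37.5%, beside 4.78% of all genes) and higher in none (median -0.13), with Mcm2 averaging 86.4 ± 3.06 CPM in clone 12 and 97.6 ± 2.51 CPM in clone 7. Class II genes were low in both of these clones, with H2-Aa averaging 0 CPM in clone 12 and 0 CPM in clone 7 and Cd74 averaging 2.2 ± 0.24 CPM in clone 12 and 1.13 ± 0.0867 CPM in clone 7. Cd55 averaged 37.7 ± 1.53 CPM in clone 12 and 26.8 ± 1.87 CPM in clone 7, between clones 6 and 4.

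**Figure D4:**
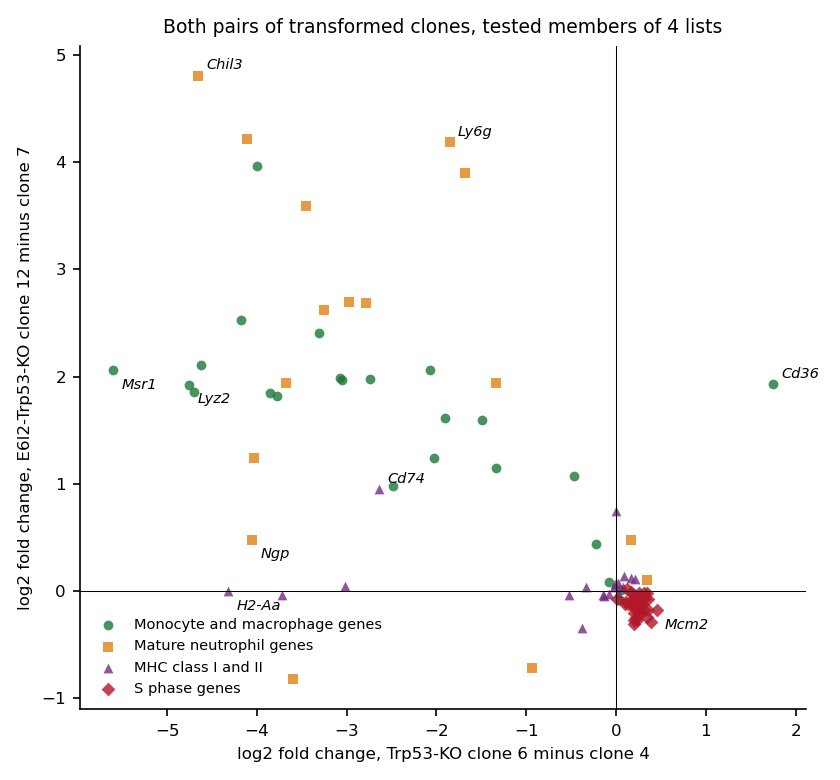
Each point is a tested member of 1 of 4 lists, with its log2 fold change for Trp53-KO clone 6 minus clone 4 on the horizontal axis and for E6l2-Trp53-KO clone 12 minus clone 7 on the vertical axis. Most monocyte, macrophage and neutrophil genes lie at the upper left, lower in clone 6 and higher in clone 12, S phase genes sit just right of and mostly below 0, and class II genes such as H2-Aa lie at the left near 0 on the vertical axis.

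Differences between the clones were spread over the genome. Median log2 fold changes of the 19 autosomes and the X lay between -0.059 (chromosome 3) and 0.065 (chromosome 10), each within 0.2 of the median over all genes. Over all genes 11.7% were called higher and 12.3% lower. Chromosome 10 had 144 genes called higher (21.2%) and 66 lower (9.71%) of 680 tested. Chromosome 18 had 61 (18.5%) and 36 (10.9%) of 329, and chromosome 11 had 187 (17.4%) and 107 (9.97%) of 1073. Others leaned lower, such as chromosome 16 with 35 higher (8.47%) and 73 lower (17.7%) of 413. Chromosome 13 was lower than in DMSO in both clones, with medians of -0.87 in clone 6 and -0.86 in clone 4, and the median between the clones was -0.026. Within chromosomes, medians over 40 neighbouring genes ran from -0.36 on chromosome 9, between Ctsh and Mras with 1 gene called higher and 16 lower, to 0.23 on chromosome 13. On chromosome 10 the genes from Cbarp to Lmnb2 had a median of 0.22, with 17 called higher and none lower. These medians are descriptions without a test, since genes of a region are not replicates.

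**Figure D5:**
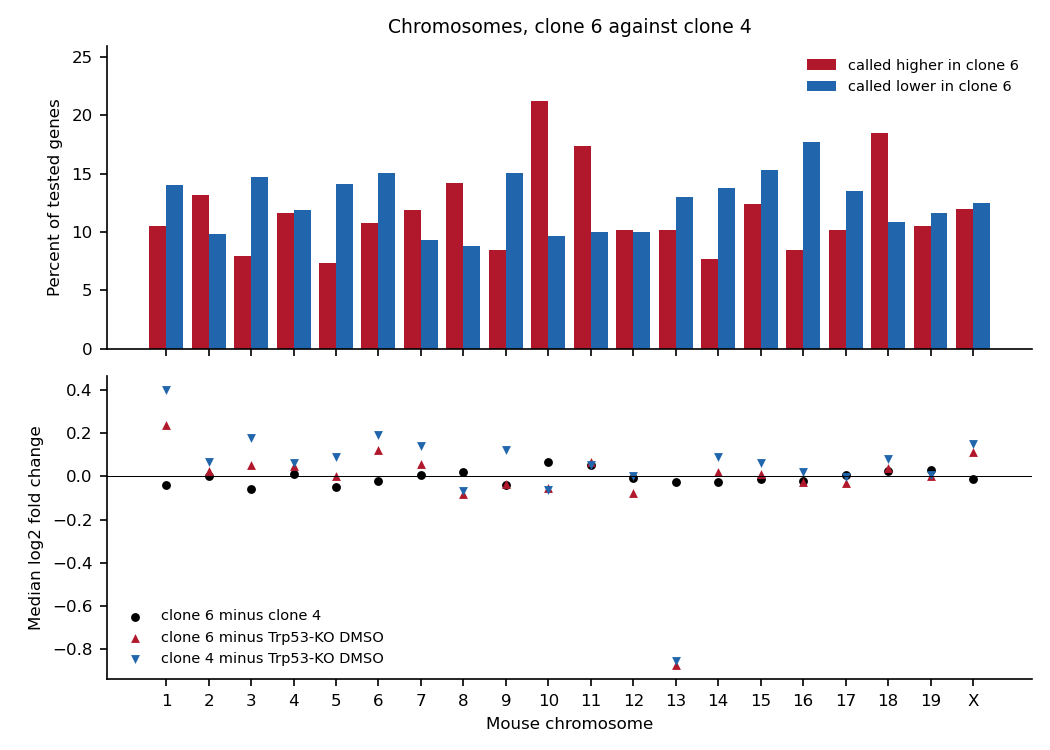
Top, percent of the tested genes of each chromosome called higher (red) or lower (blue) in clone 6 than in clone 4. Bottom, median log2 fold change per chromosome for clone 6 minus clone 4 (black circles), clone 6 minus Trp53-KO DMSO (red triangles) and clone 4 minus Trp53-KO DMSO (blue triangles, pointing down). Chromosome 13 lies near -0.87 against DMSO in both clones, while the black circles stay between -0.059 and 0.065.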

How the data were processed

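RNA was sequenced from 48 libraries of Cas9-Hoxb8 cells in 16 groups. The deposited table gives the authors' estimated counts per gene, of which 71.5% lie within 0.01 of a whole number. The aligner, counter, annotation, genome build and strand setting were not given in the sources used here. Counts were rounded, and 14403 of 25528 genes passed filterByExpr over 18 libraries (clones 6, 4, 12 and 7 and both DMSO groups). They were tested with edgeR 4.0.16 (R 4.3.3; TMM, quasi-likelihood F test, 12 residual degrees of freedom) and Benjamini-Hochberg adjusted over all tested genes. SE is the size of the log2 fold change over the root of F. DESeq2 1.42.0 and other alternatives are compared in the closing section. The code was checked on simulated counts.

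The groups were chosen by label. The gene lists, the rules and the comparison were chosen with earlier results of these data known. Named were a panel of 22 genes, the 15 largest rises and 15 largest falls among called genes at 5 CPM or more with no overlap, and up to 4 called members of each list by size of change. The genes Abca1, B2m, Ccl2, Cd55b, Ciita, Csf1, Ctsd, Ctsg, Ctss, Cx3cr1, Dusp4, Egr1, F13a1, Fcer1a, Fcgr3, Fos, Ghr, Gins3, Gpnmb, H2-DMa, H2-K1, H2-T23, Hspa5, Itga2b, Maf, Ms4a6d, Nrep, Orc1, Prnp, Psg18, Runx1, Serpinb1a, Smoc2, Spi1, Srgn, Tlr4 and Tlr8 were named after their values were seen.

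Chromosomes came from GENCODE M21, matched by identifier for 99.8% of genes, and promoters from RefSeq. Without a known strand setting, reads of genes with overlapping exons cannot be told apart. Among named genes this concerns Abcb1b, Albfm1, Ccnd1, Cd55, Cd55b, Cdkn1a, Cebpa, Ciita, Csf1r, Ctsb, Ctsl, Cx3cr1, Dab2, F13a1, Gata3, Gbp2, H2-DMa, Lyl1, Maf, Me1, Mecom, Meis1, Mpo, Orc1, Rfc5, Runx1, Snrpn, Thbs1 and Tk1, which overlap a gene on the other strand. Cd74, Csf2rb, Ctsd, Ephx1, Fdps, Hoxa9, Itgam, Prnp, Spp1 and Top2a overlap one on their own strand.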

Additional observations from a re-analysis of the deposited data

How the results depend on the processing

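The number of genes called between clones 6 and 4 depended on the libraries kept. It was 3460 in all libraries, 2285 without clone 4 replicate 3, 2448 without clone 6 replicate 1 and 2285 to 3505 when each library of the clones was left out in turn, and 2333 without the 2 libraries of over 60 M counts, an alternative added after seeing the data. Thinning to the shallowest library gave 2953, no filter on low counts 3293, the 6 libraries alone 3156, the 12 transformed libraries 3397, RLE size factors 3732, DESeq2 3417 and an offset for transcript length and GC content 3649. Calls at least 2-fold lower ranged from 532 to 621 and calls at least 2-fold higher from 38 to 44 with single libraries left out. None of these alternatives called a gene in the direction opposite to the reported call. Between clones 12 and 7, 1129 genes were called without the 2 deep libraries, against 1933 in all. RLE size factors and DESeq2 moved the median of all genes from -0.0034 to 0.021.

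Same-numbered replicates of the clones did not deviate together (correlations of 0.0565, -0.0747 and 0.0519). The labels do not say what the numbers stand for, so whether they pair the samples is not known. With the replicate block 3481 genes were called, 3338 of the 3460 among them.

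Among the genes named in the text, only genes without a call changed sign. Abcb1b was at 0.0036 with the length and GC offset and Gata1 at -0.013, Gata2 at -0.071, Mitf at 0.039 and Spi1 at -0.085. Mitf was at 0.0038 with RLE size factors and 0.0038 with DESeq2, and 0.0059 without the 2 deep libraries, where Tdp2 was at -0.012. Tdp2 was at -0.00090 after thinning. With single libraries left out Abcb1b ran from -0.075 to 0.0090, Cdkn2a from -0.18 to 0.070, Fcgr3 from -0.0036 to 0.082, Gata2 from -0.0044 to 0.074, Mitf from -0.064 to 0.015 and Tdp2 from -0.034 to 0.067 on the log2 scale. The causes were not tested. Depth limits the genes under 1 CPM most, for which a library of 23 M counts holds few counts.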

Other observations

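A few more genes separated clones 6 and 4, all chosen after their values were seen. For Nrep, Prnp and Psg18 the other clones and DMSO did not share the pattern. Nrep had 9.15, 8.6 and 8.58 CPM in clone 6 and 53.9, 58.4 and 60.9 CPM in clone 4, with averages of 2.34 CPM in clone 12 and 1.35 CPM in clone 7 and no count in Trp53-KO DMSO. Prnp, the prion protein gene, had 117, 109 and 115 CPM in clone 6 and 58.1, 59.5 and 57.7 CPM in clone 4, and averaged 0.40 and 0.193 CPM in clones 12 and 7 and 0.0492 CPM in DMSO. Both clones of Trp53-KO held far more Prnp RNA than the other 3 groups, and clone 6 more than clone 4 (log2 fold change 0.96, SE 0.049, adjusted p = 1.30e-12, edgeR quasi-likelihood F test). Psg18, a pregnancy-specific glycoprotein gene, had 3.97, 3.54 and 4.12 CPM in clone 6 and 1.01, 1.48 and 1.14 CPM in clone 4, and under 0.1 CPM on average in clones 12 and 7 and in DMSO. Ghr, the growth hormone receptor, had 1.48, 1.59 and 1.44 CPM in clone 6 and 0.123, 0.217 and 0.144 CPM in clone 4 (log2 fold change 3.27, SE 0.27, adjusted p = 4.18e-09).

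Sensors of RNA in the endosome differed as well. Tlr8 (chromosome X) had no count in the 3 libraries of clone 6, 1.94, 2.04 and 2.44 CPM in clone 4 and no count in DMSO. Its neighbour Tlr7 had 0.069, 0.199 and 0.265 CPM in clone 6, 4.98, 4.86 and 5.24 CPM in clone 4 and 0.0628, 0.0378 and 0.121 CPM in DMSO. Clones 12 and 7 averaged 3.81 ± 0.304 and 0.799 ± 0.20 CPM of Tlr7.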
